A study of Homo sapiens with 6 samples.

Results

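The mismatch repair (MMR) genes MSH3, MSH6, MLH3, PMS1, PMS2 and EXO1 were examined in the poly(A) 3′-seq peak list of IMR-32 cells, a MYCN-amplified neuroblastoma cell line. A peak was assigned to a gene when its summit lay in the Gencode gene body or up to 4 kb past the 3′ end. By this rule the 6 genes held 98 of the 200023 peaks in the list, and 74 of the 98 passed the study's cutoff of −log10 q of at least 5. The 6 libraries formed 3 groups of 2 samples. One group received DMSO as solvent control, and the others received THZ531 at 400 nM, during 2 h in one and 6 h in the other. This drug binds CDK12 and CDK13, which phosphorylate RNA polymerase II, and blocks both kinases irreversibly. All samples were of 1 cell line, and the labels name no genetic change. The authors called peaks on merged reads, so each peak has 1 pooled value, with no strand, replicate error or depth per library. No value here compares DMSO with THZ531, and no p-value is given.

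Mismatch repair corrects bases that DNA polymerase paired wrongly and small loops left by slippage in repeats. MutS proteins, among them MSH3 and MSH6, recognise the mismatch. MutL proteins, among them MLH3, PMS1 and PMS2, act next as dimers, and an exonuclease, EXO1, removes the stretch of new strand that holds the error. An mRNA ends where the nascent transcript is cut and polyadenylated, usually shortly after a hexamer called the polyadenylation signal (PAS). The study asked how inhibition of CDK12 changes the use of such sites inside introns, where their use gives a truncated transcript.

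Of 8 adrenergic neuroblastoma markers, 8 had a peak at an annotated transcript end, against 64.0% of all protein-coding genes. Their tallest end peaks had 19 to 123 reads. The lowest, in DBH, lay under the median of 25 over all genes with such a peak. Of 8 markers of other cell types, 2 had an end peak, COL1A1 with 15 reads and EPCAM with 7. In introns, EPCAM had 2 peaks, the tallest with 25 reads, and PECAM1 had 1 with 7. Reads at the summit means the number of extended reads over the peak's highest base, recovered from the authors' fold enrichment and −log10 p. Only distinct start positions were counted, to at most 200 reads, so the number is not an expression level.

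Sequences at the tallest sites are shown so that the hexamer found there, and its distance from the annotated end, can be read. They are reference sequence of GRCh38 on the gene strand, 5′ to 3′, with the first listed hexamer in capitals. The hexamers searched on the gene strand were AATAAA or ATTAAA or AGTAAA or TATAAA or AATATA or AATACA or CATAAA or GATAAA or AATGAA or ACTAAA or AAGAAA or AATAGA, anywhere in the 100 bp before the peak's 3′ edge. These 12 can overlap each other. The first 5 lines are the canonical ends (the end of the Ensembl canonical transcript), and the next 3 are the tallest sites at another annotated end of MSH3 (chr5:80875893-80875922), MSH6 (chr2:47798711-47798740) and PMS2 (chr7:5973265-5973294). The tallest other end of PMS1 had no hexamer, and that of EXO1 is not shown.
MSH3 canonical end, chr5:80876914-80876943, plus strand: gcgcAATACAcagaagtgaacttgttcatt
MSH6 canonical end, chr2:47806976-47807005, plus strand: ggaaATTAAAcccttttaattcttatctac
PMS1 canonical end, chr2:189877603-189877632, plus strand: cgtaAATAAActaatatagactattcattt
PMS2 canonical end, chr7:5970929-5970958, minus strand: gggtAATAAAtttgtgttgcttcgaaccac
EXO1 canonical end, chr1:241889916-241889945, plus strand: agatAGTAAAtggagaaactacaatcctag
MSH3 other end: gagaATTAAAaataccaactgtacaaaata
MSH6 other end: gccaAATAAAaaaacgaagggtcatatcag
PMS2 other end: aaaaAATACAcatcacacccatttaaaagt

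The marked hexamer started before the annotated end at the canonical ends of PMS1 (22 bp), PMS2 (29 bp) and EXO1 (19 bp) and at the other ends of PMS2 (49 bp) and MSH6 (119 bp). It started past the annotated end at the canonical ends of MSH3 (103 bp) and MSH6 (27 bp) and at the other end of MSH3 (28 bp). For these 3 sites the hexamer shown is thus a match within the bases searched before the peak's 3′ edge and does not mark the annotated end. From its start to that edge there were 17 bases at the MSH3 canonical end, 91 at the MSH6 canonical end and 24 at the MSH3 other end. The hexamer started 143 bp past the summit at the MSH3 canonical end and 161 bp past it at the PMS1 canonical end. Both exceed the 100 bp to which reads were extended. At the other ends shown it started 12 to 97 bp past the summit. Whether a marked hexamer served the reads at the summit was not tested.

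The next 3 sequences come from the tallest intronic peak of MSH6, PMS1 and PMS2. The tallest intronic peaks of MSH3 and EXO1 had none of the hexamers. The marked hexamer started 22 bp past the summit in MSH6, 11 bp in PMS1 and 281 bp in PMS2, the last beyond the 100 bp read extension.
MSH6 intron 1, chr2:47787297-47787326, plus strand: ataaAATAAAagttggtgaaaatgttgatt
PMS1 intron 1, chr2:189785273-189785302, plus strand: tttaAATAAAtgatttctttgtgttctctc
PMS2 intron 1, chr7:6006843-6006872, minus strand: ccttTATAAAactcttaaagctagtacagc

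The last pair shows the other kind of sequence found at intronic peaks, a run of genomic A just past the peak, on which the oligo(dT) primer of the library kit can also start. Capitals mark each A. Both lie in MSH3 and hold 22 A in 25 bases, and neither peak had a hexamer. The study removed peaks that had no hexamer and lay before such a stretch. That filter was not applied here, so both peaks stay in the counts.
MSH3 intron 17, chr5:80784219-80784243, plus strand: AAAAAAAAAAAAAAAAAAAAAgggA
MSH3 intron 19, chr5:80807194-80807218, plus strand: AAAAAAAAAAAAAAAAAAggAAAAg

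Of the 74 peaks, 46 were intronic, 6 exonic, 6 at a canonical end and 11 at another annotated end, and the other 5 fell on an end or exon of another gene. An end was the window from 200 bp before to 600 bp after an annotated transcript end. The canonical-end peaks had 14 to 40 reads at the summit (median 27) and the intronic peaks 7 to 44 (median 15). The other-end peaks had 8 to 34 reads (median 22) and the exonic peaks 8 to 25 (median 12). The ranges of the classes overlapped. Over all detected protein-coding genes, the medians were 22 reads at canonical ends and 12 in introns.

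**Figure D1:**
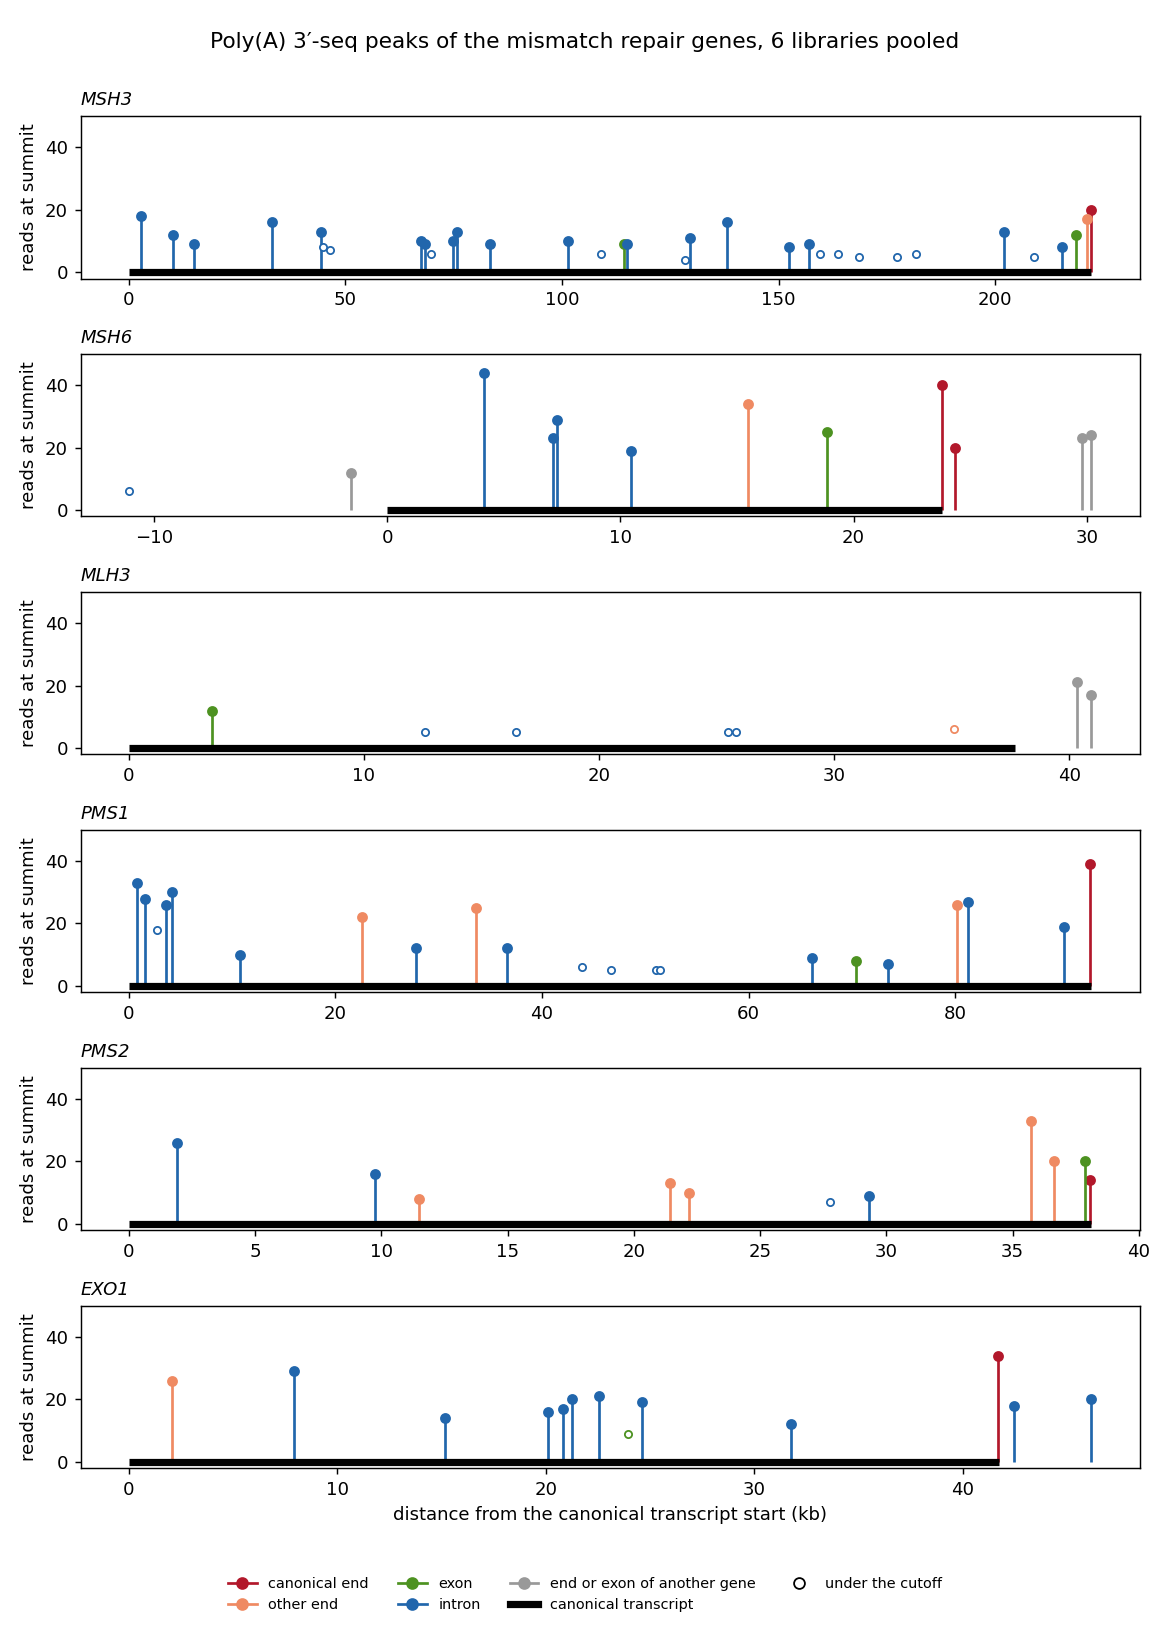
Reads at the summit (y axis) of each peak against its distance from the start of the canonical transcript in kb (x axis), with 1 panel per gene and colours for the class of the peak. Filled points passed the cutoff and open points did not, and the black bar is the canonical transcript: canonical-end peaks stood at 14 to 40 reads in 5 genes, and MLH3 had none.

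A transcript-end peak was present in 5 of the 6 genes, against 64.0% of all protein-coding genes, and MLH3 was the exception. All 5 also had an intronic peak, against 77.4% of detected genes with an intron. A detected gene was one with a transcript-end peak. In 1 of the 5, MSH6, the tallest intronic peak was at least as tall as the tallest end peak, against 35.6% of detected genes with an intronic peak. Without peaks that have a near-identical copy in the genome the count was 2 of 5, since PMS2 then had 26 reads at its tallest intronic peak and 8 at its tallest end. With 6 genes these counts are a description, and no difference from the background was tested.

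MSH3, the MutS subunit whose dimer binds larger loops, was the longest of the genes, with 222.2 kb on chromosome 5 (80654652 to 80876815, plus strand) and 24 exons. It held 33 peaks, of which 22 passed the cutoff. The canonical end had 20 reads, and an end nearer the start of the last exon, that of MSH3-204, had 17. The 18 intronic peaks had 8 to 18 reads (median 10) and were spread over introns 2 to 22. Intron 8 held 4 of them (9 to 16 reads) and intron 10 held 3 (9 to 13 reads). The tallest, with 18 reads, lay in intron 2, 2.77 kb from the start, and differed from the canonical-end peak by 2 reads. Another 2 peaks lay in coding exons 15 (9 reads) and 23 (12 reads).

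MSH6, whose dimer binds single mispaired bases, is short in its canonical form, 23.81 kb on chromosome 2 (47783145 to 47806953, plus strand). Its gene record spans 114.5 kb because annotated transcripts start far upstream. Of its 11 peaks past the cutoff, 2 fell in the canonical-end window, with 40 and 20 reads. The end of MSH6-213, in coding exon 4, had 34 reads. The 4 intronic peaks had 44, 23, 29 and 19 reads from the start inward. The first of these, in intron 1 and 4.13 kb from the start, was the tallest of all 74 peaks. In 9 of the 11 peaks the summit also lay in FBXO11, a ubiquitin ligase subunit gene on the opposite strand (47789316 to 47906498), and the list has no strand. The tallest intronic peak lay outside it, 2.04 kb past its 3′ end. The reads of MSH6 and FBXO11 cannot be told apart. A hexamer on the MSH6 strand was present at 6 of the 9 shared peaks, against 57.1% of intronic peaks over all detected genes. On the FBXO11 strand, a hexamer was present at the exonic peak of 25 reads, which had them on both strands. It was also present at the peak of 23 reads past the canonical end. The 3 peaks assigned to another gene (12, 23 and 24 reads) lay at an annotated U6 small nuclear RNA upstream and at FBXO11 exons past the canonical end.

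MLH3, a MutL protein with its main known role in meiotic crossing over, differed from the other genes. Across 37.69 kb on chromosome 14 (75013775 to 75051467, minus strand) it held 8 peaks, of which 3 passed the cutoff. None of the 3 lay at an end or in an intron of MLH3. A peak of 12 reads lay in coding exon 2, 3.53 kb from the start, with AAGAAA before its edge. The others (21 and 17 reads) lay past the 3′ end of MLH3 in the last exon of EIF2B2, a translation initiation factor gene that runs towards it. The summit with 21 reads also fell in the end window of another annotated gene on the MLH3 strand. The peaks under the cutoff were 4 intronic peaks of 5 reads each and 1 of 6 reads at the end of MLH3-204, within the last exon. The canonical end had no peak.

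PMS1, a MutL protein whose part in repair is less clear, spans 93.18 kb on chromosome 2 (189784450 to 189877629, plus strand). Of its 21 peaks, 16 passed the cutoff. The canonical end had 39 reads, and 3 other annotated ends had 22 (PMS1-205, in intron 4), 25 (PMS1-211, at coding exon 5) and 26 reads (PMS1-210, in intron 10). The last had no hexamer and was followed by 19 A in 25 bases. The 11 intronic peaks had 7 to 33 reads (median 19). Of these, 4 lay in intron 1 within 5 kb of the start, with 33, 28, 26 and 30 reads, and exceeded the 6 intronic peaks with 7 to 19 reads. The remaining one, in intron 10 next to the PMS1-210 end, had 27 reads. All 4 in intron 1 had a hexamer, AATAAA at the tallest. The peak with 28 reads was 724 bp wide, and the 100 bp searched before its 3′ edge did not reach its summit. PMS1 thus had its tallest intronic peaks in introns 1 and 10, with lower ones between them and 1 of 19 reads in intron 12. The other-end peaks of 22 and 25 reads also lay between introns 1 and 10.

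PMS2, the MutL subunit that nicks the strand to be repaired, covers 38.12 kb on chromosome 7 (5970925 to 6009049, minus strand). Of its 11 peaks, 10 passed the cutoff. The canonical end had 14 reads, the lowest canonical-end value of the 5 genes. The end of PMS2-239, in the last exon and 2316 bp before the canonical end, had 33. That of PMS2-253 had 20, and a further peak in the same exon had 20. Another 3 annotated ends, PMS2-251, PMS2-246 and PMS2-262, had 8, 13 and 10 reads. The 3 intronic peaks fell in introns 1, 5 and 12, with 26, 16 and 9 reads. Thus the 3′ UTR held 4 peaks, of which the canonical end was the lowest.

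Much of the 3′ part of PMS2 has a near-identical copy on the same chromosome, so its values are uncertain. The reference held a stretch with at least 95 of 100 bases identical to the summit region for 7 of the 10 peaks, with all 100 identical for 6 of these. The copies lie at 6737023 to 6753876, over and past the pseudogene PMS2CL (6735305 to 6751392, plus strand). At 3 of the copies the list has a peak of its own. The PMS2-239 end peak with 33 reads has a copy peak of 19, which starts 26 bp past the end of PMS2CL. The exonic peak with 20 reads has a copy peak of 15, and the canonical-end peak with 14 reads has one of 21. Mapping allowed a read up to 20 placements, and how reads from either locus were divided was not tested. The 3 peaks without a copy had 26, 16 and 8 reads, all in the 5′ part of the gene. Without the peaks that have a copy, the only end peak of PMS2 was that of PMS2-251, with 8 reads. Outside PMS2, 7 of the other peaks had at least 1 near-identical copy in the genome, 2 in MSH3, 2 in MSH6, 2 in PMS1 and 1 in EXO1. The copies numbered 526 and 2549 for the MSH3 peaks, 1 and 13 for MSH6, 1 and 120 for PMS1 and 2576 for EXO1.

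**Figure D2:**
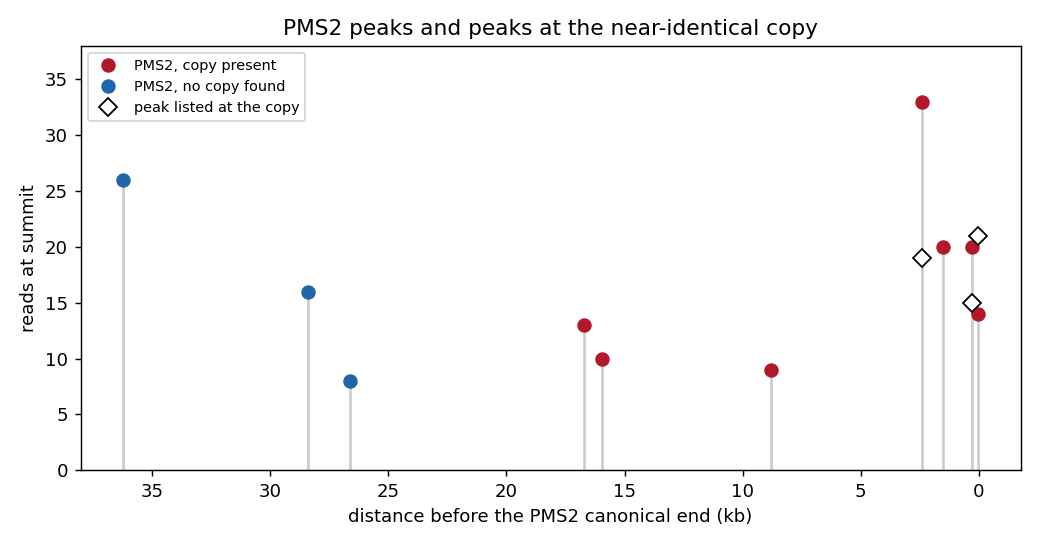
Reads at the summit (y axis) of the 10 PMS2 peaks against distance before the canonical end in kb (x axis), red where the genome holds a near-identical copy and blue where none was found. Diamonds are peaks listed at the copy, drawn at the matching PMS2 position: the copy was lower at 2 sites (19 against 33 reads, 15 against 20) and higher at the canonical end (21 against 14).

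EXO1, the exonuclease of the pathway, spans 41.74 kb on chromosome 1 (241848204 to 241889939, plus strand). Of its 13 peaks, 12 passed the cutoff. The canonical end had 34 reads, and the end of EXO1-210, in intron 3 and 2.08 kb from the start, had 26. The 10 intronic peaks had 12 to 29 reads (median 18.5). The tallest lay in intron 6, 7.94 kb from the start, with no hexamer. A run of 4 peaks in intron 11 had 16, 17, 20 and 21 reads between 20.1 and 22.5 kb from the start, and all 4 had a hexamer. Another 2 peaks (18 and 20 reads) lay past the canonical end, in an intron of the longer transcript EXO1-209. No peak past the cutoff lay in an exon outside an end.

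To set the number of intronic peaks against gene length, each gene was placed among the 200 detected protein-coding genes nearest to it in length. EXO1 had 10 intronic peaks where its neighbours had a median of 4 (quartiles 2 and 6), and 192 of the 200 had fewer. Counted within the canonical transcript alone, it had 8 against a median of 4, at the 92.75th percentile. PMS1 had 11 against 8 (quartiles 5 and 11, 72.5th percentile), MSH3 18 against 16 (quartiles 9 and 23, 54.75th) and PMS2 3 against 3 (45.5th). MLH3 had 0 against 3 (4.5th percentile), and it was not itself a detected gene. MSH6 had 4 against 9.5 (18th percentile) by its gene record, but 4 against 2 (87.25th) by its canonical transcript, so its place rests on which length is used. By the gene record, EXO1 stood above the upper quartile of its neighbours and MLH3 and MSH6 below the lower one.

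**Figure D3:**
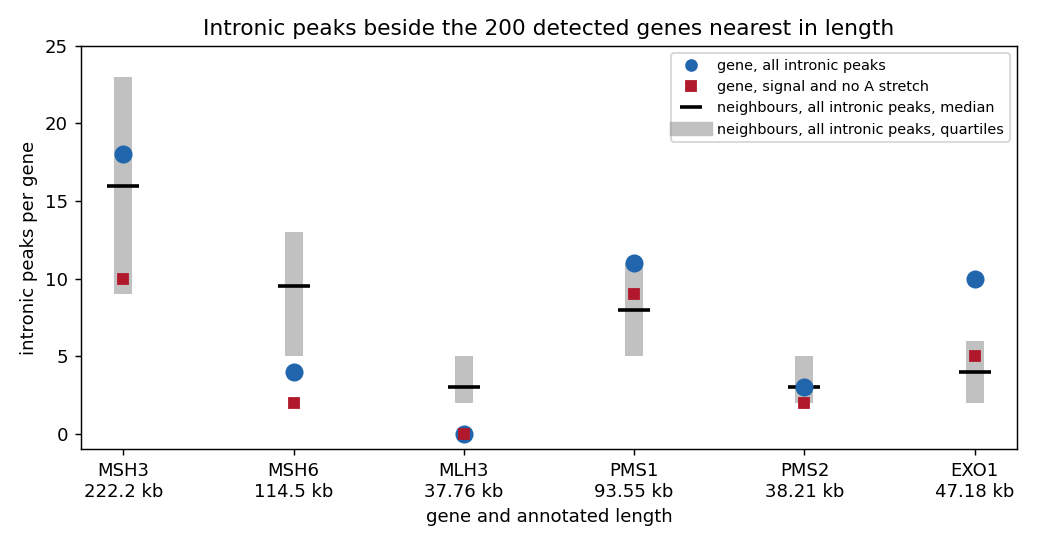
Intronic peaks per gene (y axis) for the 6 genes, with the annotated length under each name (x axis). Blue circles are all intronic peaks, red squares those with a hexamer and no A stretch, and the grey bar and black line give the quartiles and median of all intronic peaks in the 200 genes nearest in length: EXO1 (10) stood above its bar of 2 to 6.

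Sequence around the intronic peaks was then compared with that of intronic peaks in all detected genes. At least 1 hexamer was found at 33 of the 46 intronic peaks (71.7%, 95% Wilson interval 57.5 to 82.7), against 57.1% over all detected genes. The background share lay just below the interval. That interval covers counting error only and treats the 46 peaks as independent, although many came from the same gene, so no difference was tested. When the search ended at the summit in place of the 3′ edge, the share was 43.5%, and the background was not recounted in that way. AATAAA itself was found at 19 of 46 (41.3%, 28.3 to 55.7), and its share over all detected genes was not counted. By gene, a hexamer was present at 10 of 11 intronic peaks in PMS1, 12 of 18 in MSH3, 6 of 10 in EXO1, 3 of 4 in MSH6 and 2 of 3 in PMS2. At the ends, all 6 canonical-end peaks had a hexamer, against 86.3% of canonical-end peaks over all genes. A hexamer was present at 9 of 11 other-end peaks, for which no background share was counted.

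An A stretch, at least 18 A in 25 bases within 50 bp past the 3′ edge, was found at 10 of the 46 intronic peaks (21.7%, 12.3 to 35.6), against 28.8% over all detected genes, a share inside the interval. MSH3 held 6 of the 10, EXO1 held 2, and MSH6 and PMS1 held 1 each. A hexamer without an A stretch was present at 28 peaks, both at 5, an A stretch without a hexamer at 5, and neither at 8. PMS1 had 9 intronic peaks with a hexamer and no A stretch where its neighbours in length had a median of 4. That was the 95.25th percentile, higher than its place by all intronic peaks. EXO1 had 5 such peaks against a median of 2, MSH3 10 against 8, MSH6 2 against 4, PMS2 2 against 1 and MLH3 0 against 1.

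The peak caller's local background gives, for all but 4 of the peaks past the cutoff, the number of reads on both strands in the 10 kb around the summit. The first 5 kb of PMS1 had 542 to 579 reads per 10 kb around its 4 intronic peaks, whereas peaks from there to the last exon had 46 to 164 and the canonical end had 184. In PMS2, the intron 1 peak had 287, the peaks farther in 56 to 130 and the canonical end 124. In MSH3, the first peak had 197, the peaks farther in 34 to 128, with 4 at the caller's floor, and the canonical end 128. These 3 genes had their highest value at the first peak or peaks. EXO1 had 294 at 2.08 kb, 351 at 7.94 kb, 36 at 31.76 kb and 253 at the canonical end. The 8 MSH6 peaks not assigned to another gene had 331 to 517.

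Over all detected genes of at least 20 kb, the median intronic peak had 199 reads per 10 kb within 5 kb of the start (6696 peaks) and 68 farther in (56368 peaks). The reads at the summit had medians of 18 and 11. Intronic peaks near the start thus had more reads over all these genes too. A window of this size at the start of a gene also takes in the neighbour: ORMDL1 and AIMP2 start close to PMS1 and PMS2 on the opposite strand. Their part in these reads was not tested.

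**Figure D4:**
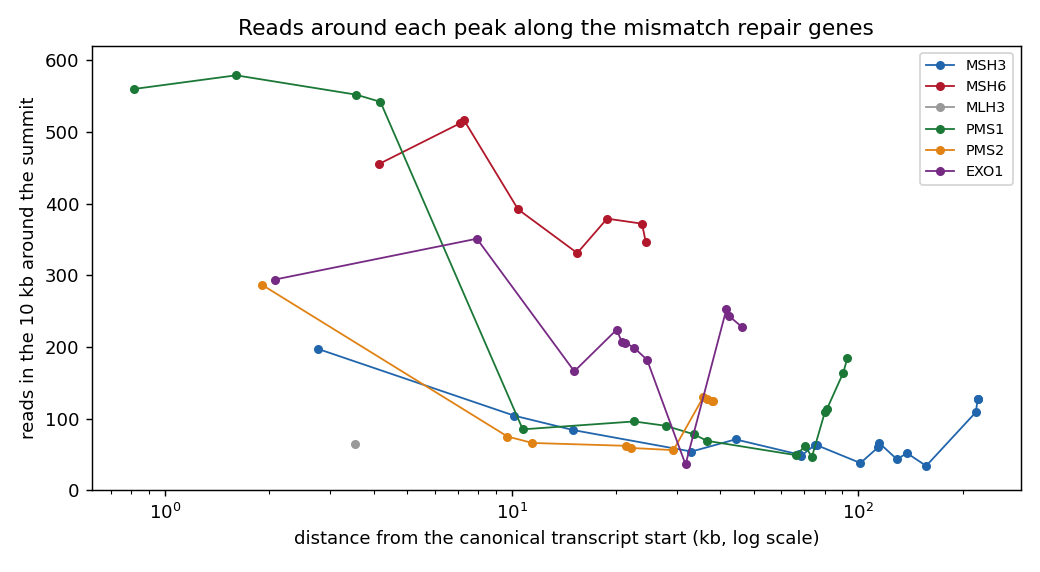
Reads in the 10 kb around the summit on both strands (y axis) against distance from the canonical start in kb on a log scale (x axis), for peaks past the cutoff, with 1 line per gene and without 4 MSH3 peaks at the peak caller's floor. PMS1 had 542 to 579 within 5 kb of the start, 46 to 164 farther in and 184 at its canonical end, and EXO1 had 36 to 351 along the gene and 253 at its canonical end.

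Other genes of the pathway were described by a list of 17: the clamp PCNA, the single-strand binding proteins RPA1 to RPA3, the clamp loader subunits RFC1 to RFC5, the polymerase subunits POLD1 to POLD4 and POLE, the ligase LIG1 and the meiotic MutS homologues MSH4 and MSH5. A transcript-end peak was present in 16 of the 17, all except POLD4, against 64.0% of all protein-coding genes. The tallest were in RFC4 (61 reads), RPA3 (50) and RFC5 (48), above the 40 reads of MSH6. An intronic peak was present in 13 of the 16 with an end peak, against 77.4% of detected genes with an intron, and POLD4 had none. The most were in RFC3 (26, neighbours' median 12, 94.25th percentile), MSH4 (10, median 9), and POLD3 and POLE (9 each, medians 14 and 6). In 7 of the 13, the tallest intronic peak was at least as tall as the tallest end peak. The share was 35.6% over detected genes with an intronic peak. By number of intronic peaks and gene record, 5 of the 17 lay above the median of their neighbours in length, 3 below and 9 at it. Of the 6 genes described here, 3 lay above, 2 below and 1 at it.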

How the data were processed

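The deposited file is 1 pooled list of peaks. Per the labels, the authors mapped reads with STAR 2.5.1b to GRCh38, and per the study's methods called peaks with MACS2 2.1.1 on merged reads extended to 100 bp. The merged samples were taken to be the 6 libraries. The deposited list gives a fold enrichment (a ratio of pileup plus 1 to local background plus 1), a −log10 p-value, a −log10 q-value and a score, which was not used. From the authors' fold and −log10 p, the Poisson tail was solved here for the pileup and the background (largest misfit of −log10 p 0.000172). The depth of each library is unknown.

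Summits were placed with Gencode release 44, whereas the study used an earlier one. The order was canonical end, other end, own exon, another gene's end or exon, intron, past the last end. Strand came from the gene. Copies were found with BLAST+ 2.17.0+. Shares have 95% Wilson intervals. No test was run. The members and lists were chosen with earlier results of these data known. The named sites were each gene's tallest canonical-end, other-end and intronic peak. Of the other pathway genes, those without an end peak, the 3 with most intronic peaks and the 3 with the tallest end peak were named. A sequence and a neighbouring gene are not reported here.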

Additional observations from a re-analysis of the deposited data

Results flagged for a closer look

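A peak at an annotated end of MLH3 (MLH3-204) had 6 reads at the summit and was left out of the counts because it did not pass the cutoff on −log10 q. It was singled out because it was the only peak of the list at a transcript end of MLH3, in data that the counts past the cutoff do not use.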

How the results depend on the processing

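With −log10 q of at least 20, 8 of the 74 peaks remained, 6 at ends and 2 in introns, and the intronic hexamer share was 100% and the A-stretch share 0%. The 17 end peaks became 10 with a window of 100 bp either side, 6 with canonical ends only and 11 without peaks that have a near-identical copy. The intronic hexamer share (71.7%) was 56.5% with AATAAA and ATTAAA only and 43.5% when the search ended at the summit. The background share was not recounted for either. The A-stretch share (21.7%) was 4.35% with at least 22 A and 45.7% when either side of the edge was searched. Percentiles among neighbours in length moved to 31.75 (MSH6) and 56.75 (PMS2) with all protein-coding genes with an intron as neighbours, and with hexamer peaks without an A stretch to 15 (MLH3), 95.25 (PMS1) and 64.75 (PMS2). MSH6 moved to 87.25 by canonical transcript length. That alternative was chosen after seeing the data, as was the removal of copies for end peaks and for all peaks. Other alternatives kept the counts within 1.5 times and the shares within their intervals. No paired analysis was possible because the 6 libraries were pooled, and for the same reason no replicate could be left out. The depth of each library is unknown. Whether a peak passed the cutoff depended on the reads around it as well as its own: the lowest passing peak had 7 reads, whereas a PMS1 peak of 18 reads with 575 in its 10 kb did not pass, and the MLH3-204 peak of 6 reads had 142.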
